A study of Mus musculus with 39 samples.

Results

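Endothelial cells line every blood vessel of the heart, and 39 genes that mark these cells or steer vessel growth were followed across 39 libraries of mouse left ventricle. The 39 genes were chosen by name, with no measured value in the rule, but with earlier results of these data known. Shares of all genes set beside the list therefore describe it and do not test it. All 39 genes were found among the 38293 genes of the count table and tested in every comparison. The hearts came from C57BL6/J mice in 2 sets. The first set held wild type mice and carriers of Pln R14del, in which phospholamban lacks arginine 14. Phospholamban restrains the calcium pump of heart muscle cells. None had surgery. At the ages of 3 and 5 weeks there were 4 wild type and 4 homozygous (R14del/R14del) hearts, and at 8 weeks there were 3 wild type, 4 heterozygous and 4 homozygous hearts. The second set held wild type male mice operated at 12 weeks, either with temporary closure of the left anterior descending coronary artery and sampling after 3 days (ischemia-reperfusion, n = 4) or with permanent closure and sampling after 8 weeks (infarction, n = 4). Their tissue was taken away from the infarct. Sham-operated hearts, 2 aged 12 weeks and 2 aged 20 weeks, were pooled as 1 control group of 4. The labels name no cell type to which R14del is restricted and no sorting of cells.

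As background, endothelial cells sense vascular endothelial growth factors (VEGFs) through Kdr, Flt1 and Flt4, and a second growth factor pathway runs from the angiopoietins Angpt1 and Angpt2 to the receptor Tek. Kdr is the main receptor for sprouting and the Notch ligand Dll4 restrains it, while junction proteins such as Cdh5 hold neighbouring cells together. In the heart most endothelial cells are capillary cells that pass fatty acids to the muscle through Gpihbp1 and Fabp4. Plvap and Vwf, by contrast, are best known from veins, endocardium and vessels with fenestrations.

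Deposited counts summed to between 9402904 and 19320791 per library, with the 5-week libraries (9784771 to 11984580) shallower than those at 3 and 8 weeks (13065153 to 19320791). Levels are given as CPM, the count relative to the library total after TMM scaling over all 39 libraries, and are compared between libraries for the same gene only. Changes are log2 fold changes with their standard error, and a gene is called when its adjusted p lies below 0.05. The defining markers Cdh5, Pecam1, Kdr, Tie1 and Cldn5 were detected in every library, and their summed level was 1008 to 1186 CPM in wild type hearts at 8 weeks. In whole tissue, fewer endothelial cells and less RNA per cell cannot be told apart. Among 57 pairs of replicates none held identical counts, and since the labels tie no animal numbers to the libraries, the p-values reflect sample-to-sample spread, part of which may be technical. Some members share bases with another gene: Ramp2 with Vps25 on the same strand over 1103 bases, Egfl7 with Gm20532 and Mir126a over 337 and with antisense Agpat2 over 64. Antisense genes share 1334 bases with Nos3, 737 with Angpt1, 214 with Dll4 and 61 with Eng. Reads there may come from either gene. No strand setting separates overlaps on the same strand. For the antisense overlaps, how the counting treated strand is not given in the sources used here.

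No member of the list was called at 3 weeks, nearly all were lower in homozygous hearts at 5 weeks, and at 8 weeks the list came apart. At 5 weeks 35 of 39 members were lower and 1, Plvap, was higher, against 21.4% and 22.3% of all genes tested, or 43.7% called in either direction. The median log2 change of the members was -0.71, with the middle quartiles from -0.84 to -0.50, while the median of all genes was at 0. At 8 weeks 19 members were lower and 13 were higher, against 29.0% and 30.8% of all genes (59.8% in either direction), so the share called, 82.1% of the members, stood above a high background. The 8-week changes ran from -4.10 for Apln to 2.80 for Plvap, with a median of -0.21. Heterozygous hearts had no member called (background 0.0% in edgeR and 0.0% in DESeq2). After ischemia-reperfusion 3 members were higher and 5 lower (16.9% and 14.1% of all genes), and after infarction 4 were higher and 1 lower (6.62% and 4.77%). The share of members called was 20.5% after ischemia-reperfusion, against 31.0% of all genes. After infarction it was 12.8%, near the 11.4% of all genes.

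When only library size was used for scaling, the all-gene median in homozygous against wild type hearts moved up by 0.21 at 5 weeks and 0.19 at 8 weeks, and the share of higher genes among those called went from 51.0% to 79.2% and from 51.5% to 63.6%. The members then stood at 2 higher and 32 lower at 5 weeks, without the calls of Flt4, Vegfa and S1pr1, and at 14 higher and 15 lower at 8 weeks, without those of Esam, Icam2, Egfl7 and Mmrn2. No member called in any comparison turned to the opposite direction under any alternative. The same scaling moved the share of higher genes from 51.6% to 67.0% in homozygous against heterozygous hearts, where Flt1, Esam, Icam2, Egfl7 and Mmrn2 lost their calls.

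**Figure D1:**
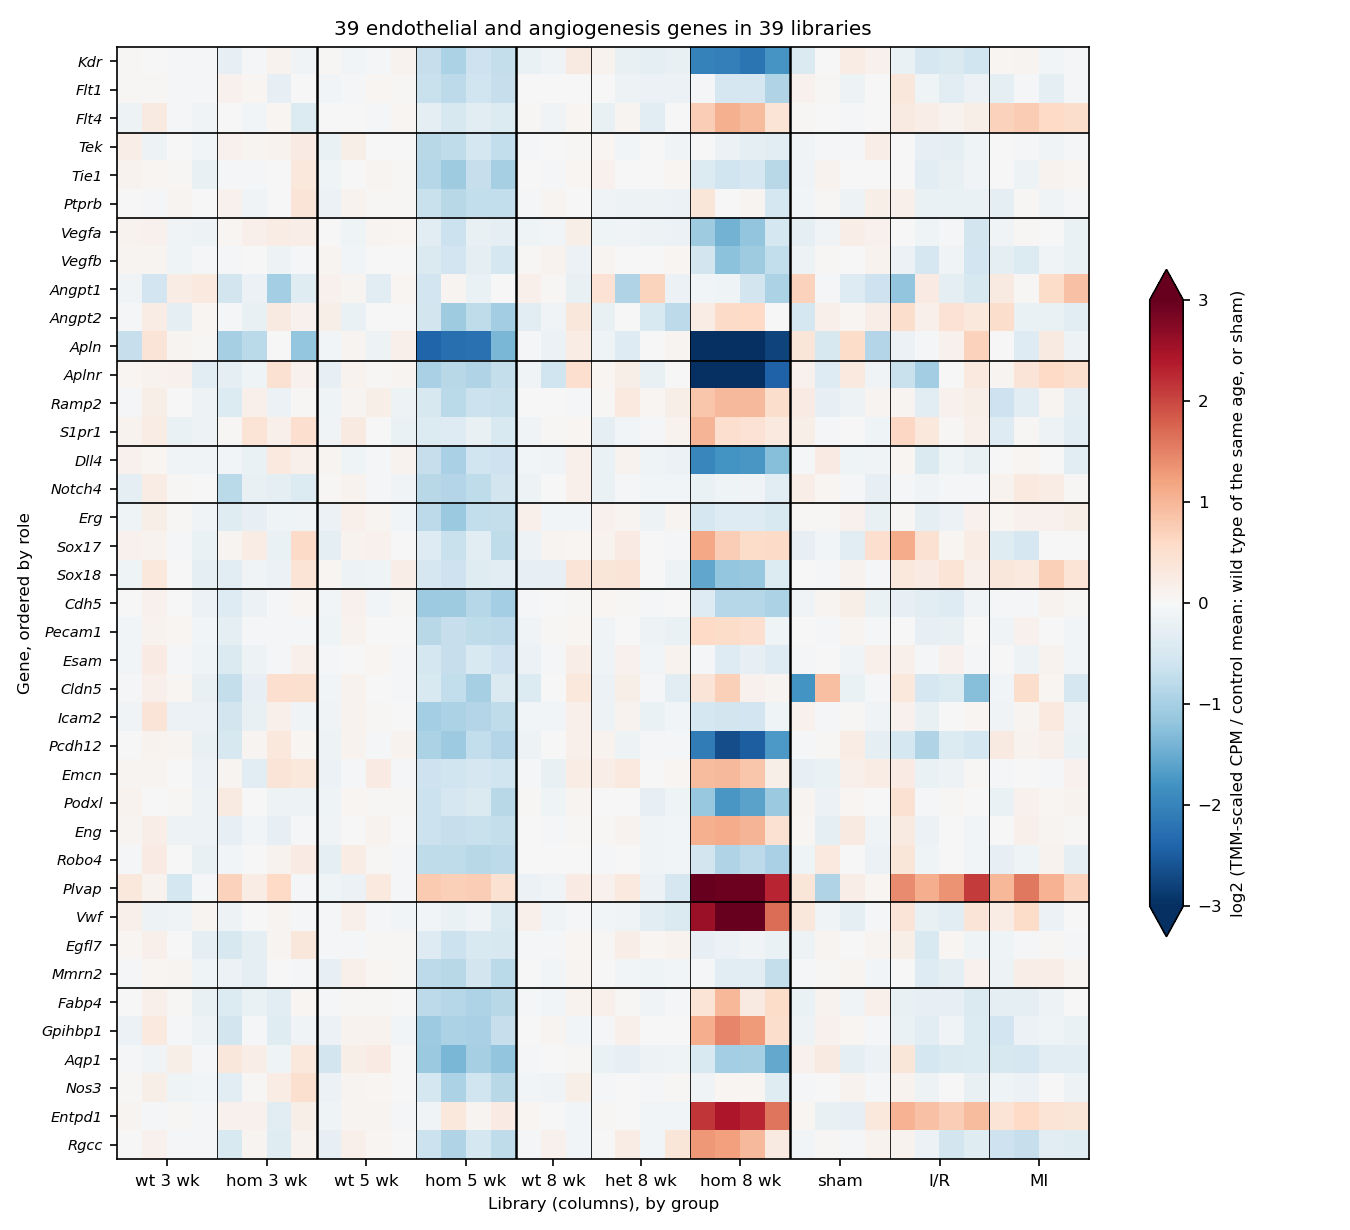
Log2 ratio of TMM-scaled CPM to the control mean (colour) for each of the 39 members (rows, grouped by role) in each of the 39 libraries (columns, by group), where the control is wild type of the same age or sham. Homozygous libraries at 5 weeks are blue, or lower, in nearly all rows, those at 8 weeks are red in some rows and blue in others, and heterozygous libraries are pale.

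Members moved apart between 5 and 8 weeks. The 5-week libraries carry names of another kind than the 8-week libraries. Genotypes were compared within each age, but whether the names mark separate handling, and its part in the contrast of ages, was not tested. An interaction term in a fit of all 39 libraries tested how far the genotype effects differed. The difference was called for 27 of 39 members, 19 toward higher and 8 toward lower at 8 weeks, against 14.4% and 13.8% of all genes (28.2% in either direction). It was called for all 10 of the members that were lower at 5 weeks and higher at 8 weeks: Flt4, Ramp2, S1pr1, Sox17, Pecam1, Emcn, Eng, Fabp4, Gpihbp1 and Rgcc. With library size scaling the 5-week calls of Flt4 and S1pr1 among them were lost. These are 25.6% of the list, and the same pattern, with the difference called, was found in 1.4% of the 13253 genes tested at both ages. A further 19 members (48.7%, against 14.9% of genes) were lower at both ages. Of these, 8 were lower by more at 8 weeks (Kdr, Vegfa, Vegfb, Apln, Aplnr, Dll4, Pcdh12 and Podxl; 5.29% of genes), 1 was lower by less (Erg; 0.0981%), and for 10 the difference was not called (9.5%). Tek, Ptprb, Angpt2, Notch4, Cldn5 and Nos3 were lower at 5 weeks only (5.21% of genes), Vwf and Entpd1 higher at 8 weeks only (12.7%), and Plvap higher at both ages (16.2%). Of these, Tek and Notch4 just missed a call at 8 weeks in edgeR and were called lower with DESeq2. No member was higher at 5 weeks and lower at 8 weeks (0.649% of genes), and Angpt1 was called at neither age.

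**Figure D2:**
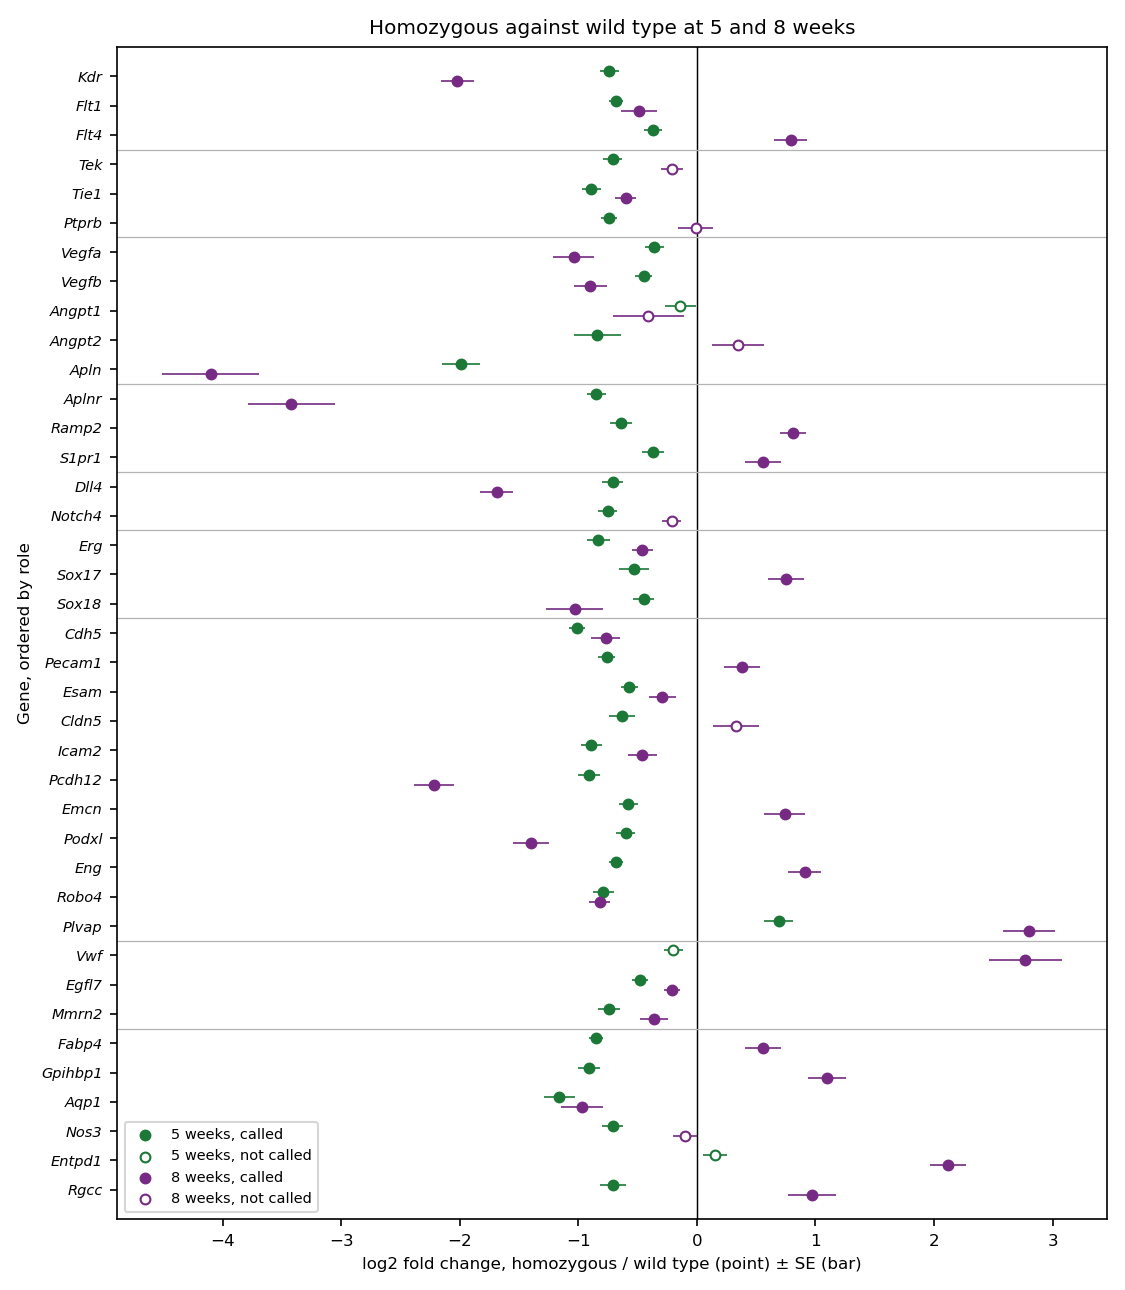
Log2 fold change of homozygous against wild type hearts (x axis) for each member (rows) at 5 weeks (green) and at 8 weeks (purple), with bars of 1 standard error and filled points where the change was called. At 8 weeks Plvap, Vwf and Entpd1 lie farthest to the right and Apln and Aplnr farthest to the left.

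Values in the groups did not overlap between homozygous and wild type hearts for 36 of 39 members at 5 weeks (40.0% of all genes), the exceptions being Angpt1, Vwf and Entpd1, and for 28 of 39 at 8 weeks (57.8%). Homozygous and heterozygous hearts at 8 weeks were apart for 25 of 39 (53.5%).

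Promoter sequence is shown for a member of each of 3 patterns: Emcn, lower at 5 weeks and higher at 8 weeks, Tek, lower at 5 weeks only, and Apln, lower at both ages and the largest fall. Tek just missed a call at 8 weeks, so its pattern rests on the threshold. The bases just before each gene's start come from RefSeq on GRCm38.p6. Sequences of 19 of the 39 members were used here. The stretch shown is 250 bases for Emcn and 120 bases for Tek and Apln. Windows of 250 bases before to 50 after the start were searched on both strands for CAGGAA, the core that ETS factors such as Erg bind, and for AACAGGAA, a longer form that contains it. CAGGAA was found in 30.6% and AACAGGAA in 2.65% of the 32851 promoters of all genes. Of the 25 promoters of the 19 members, 11 held CAGGAA (44.0%) and 2 held AACAGGAA (8.0%). All 3 members shown hold CAGGAA. In the 250 bases before the start, Eng, Flt4 and Rgcc, with the pattern of Emcn, hold neither form. Nor do Cldn5, with the pattern of Tek, or Kdr and Aqp1, with that of Apln. Over the whole window, with the 50 bases after the start, CAGGAA was in 2 of the 4 promoters with the pattern of Emcn. It was in 7 of the 16 promoters with that of Apln. ACAAT (SOX factors), ACGTG (hypoxia factors) and TGGGAA (Rbpj) were searched too, are held by 31.0%, 19.6% and 25.6% of all promoters, and are not marked. Capitals mark matches, which in these stretches lie on the opposite strand and so read TTCCTG or TTCCTGTT.
Emcn, chr3:137340828-137341077, plus strand: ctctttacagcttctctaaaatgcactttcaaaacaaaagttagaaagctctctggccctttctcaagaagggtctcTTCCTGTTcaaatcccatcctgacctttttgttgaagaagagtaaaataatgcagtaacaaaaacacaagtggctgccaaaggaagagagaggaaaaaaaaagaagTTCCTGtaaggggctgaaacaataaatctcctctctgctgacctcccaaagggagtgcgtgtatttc
Tek, chr4:94739169-94739288, plus strand: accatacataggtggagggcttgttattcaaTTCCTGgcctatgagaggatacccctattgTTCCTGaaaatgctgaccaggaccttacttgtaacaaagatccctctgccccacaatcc
Apln, chrX:48034854-48034973, minus strand: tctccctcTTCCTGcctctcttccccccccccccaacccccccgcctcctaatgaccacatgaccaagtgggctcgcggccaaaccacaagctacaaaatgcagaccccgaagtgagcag
In its last 120 bases Emcn holds 1 match of CAGGAA, against 2 for Tek and 1 for Apln, and its AACAGGAA match lies farther from the start. No binding was measured here.

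Of the 5 ligands, Apln, the apelin peptide of sprouting tip cells, changed most. The gene (ENSMUSG00000037010, minus strand of chromosome X from 48025146 to 48034853 in GRCm38, as for all positions here) was lower at both ages, 3.97-fold and 17.2-fold. At 5 weeks Apln stood at 34.5, 38.4, 32.8 and 40.6 CPM in wild type and at 6.93, 7.68, 7.70 and 14.1 CPM in homozygous hearts. At 8 weeks Apln stood at 30.9, 28.3 and 37.5 CPM in wild type and at 1.46, 0.680, 0.847 and 4.68 CPM in homozygous hearts. All homozygous libraries lay below all wild type libraries at both ages, and replicate 4 was the highest of the homozygous group each time. Apln had log2 changes of -1.99 ± 0.16 at 5 weeks (edgeR adjusted p = 1.26e-08) and -4.10 ± 0.41 at 8 weeks (edgeR adjusted p = 4.20e-06). Apln differed between the ages by -2.08 ± 0.51 (edgeR adjusted p = 0.00213). Vegfa, the main VEGF and a product of heart muscle cells as well as other cells, and Vegfb, a VEGF linked to fatty acid handling, were lower at both ages. At 5 weeks Vegfa stood at 412, 376, 437 and 428 CPM in wild type and at 332, 263, 356 and 337 CPM in homozygous hearts. At 8 weeks Vegfa stood at 418, 428 and 516 CPM in wild type and at 216, 171, 199 and 315 CPM in homozygous hearts. The genotypes did not overlap at either age, with homozygous replicate 4 nearest to wild type at 8 weeks. Vegfa had log2 changes of -0.36 ± 0.08 at 5 weeks (edgeR adjusted p = 0.00202) and -1.04 ± 0.17 at 8 weeks (edgeR adjusted p = 0.000181). Scaled to library size, Vegfa at 5 weeks was not called (-0.15 ± 0.08; edgeR adjusted p = 0.111). At 5 weeks Vegfb stood at 259, 229, 245 and 239 CPM in wild type and at 179, 162, 198 and 169.7 CPM in homozygous hearts. At 8 weeks Vegfb stood at 303, 317 and 261 CPM in wild type and at 199.6, 126, 141 and 176 CPM in homozygous hearts. Vegfb groups were apart at both ages. Vegfb had log2 changes of -0.45 ± 0.07 at 5 weeks (edgeR adjusted p = 3.54e-05) and -0.90 ± 0.14 at 8 weeks (edgeR adjusted p = 0.000129). Between the ages Vegfa differed by -0.65 ± 0.19 (edgeR adjusted p = 0.00918) and Vegfb by -0.42 ± 0.15 (edgeR adjusted p = 0.0401), and the latter call was lost in 8 fits that each left out 1 library (replicates 2 and 4 of wild type and 1 and 3 of homozygous hearts at 5 weeks, and 1 and 2 of wild type and 2 and 3 of homozygous hearts at 8 weeks), with edgeR adjusted p from 0.0547 to 0.115, and in the fit of only the 4 groups compared (edgeR adjusted p = 0.0719). Beside the VEGF ligands, the summed level of 10 cardiomyocyte markers was 34086 to 63502 CPM in homozygous and 84896 to 91175 CPM in wild type hearts at 8 weeks, and its part in these changes was not tested.

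The angiopoietins differed from the other ligands. Angpt2, which is released by activated endothelium and opposes Angpt1 in many settings, ranged over 2.59 to 8.52 CPM in all libraries. At 5 weeks Angpt2 stood at 6.05, 4.68, 5.39 and 5.39 CPM in wild type and at 3.69, 2.59, 3.15 and 2.63 CPM in homozygous hearts. At 8 weeks Angpt2 stood at 4.55, 5.24 and 7.14 CPM in wild type and at 6.57, 8.42, 8.52 and 5.63 CPM in homozygous hearts. The groups were apart at 5 weeks and overlapped at 8 weeks. Angpt2 had log2 changes of -0.84 ± 0.20 at 5 weeks (edgeR adjusted p = 0.00229) and 0.35 ± 0.22 at 8 weeks (edgeR adjusted p = 0.195). Angpt2 differed between the ages by 1.21 ± 0.29 (edgeR adjusted p = 0.00203), and against heterozygous hearts Angpt2 was higher at 8 weeks by 0.68 ± 0.21 (edgeR adjusted p = 0.0125). Angpt1, the stabilising ligand made by cells around the vessels, passed the test at neither age. At 5 weeks Angpt1 stood at 23.8, 22.9, 17.4 and 22.8 CPM in wild type and at 14.7, 23, 18.8 and 22 CPM in homozygous hearts. At 8 weeks Angpt1 stood at 22.6, 20.9 and 17.4 CPM in wild type and at 19.2, 18.7, 13.8 and 10.5 CPM in homozygous hearts. Homozygous and wild type values overlapped at both ages. Angpt1 had log2 changes of -0.14 ± 0.13 at 5 weeks (edgeR adjusted p = 0.399) and -0.41 ± 0.30 at 8 weeks (edgeR adjusted p = 0.252).

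The VEGF receptors were all lower at 5 weeks and split at 8 weeks. Kdr (ENSMUSG00000062960, minus strand of chromosome 5 from 75932827 to 75978458), also known as VEGFR2, was 1.67-fold lower at 5 weeks and 4.06-fold lower at 8 weeks. At 5 weeks Kdr stood at 327, 302, 309 and 348 CPM in wild type and at 199, 167, 209 and 195 CPM in homozygous hearts. At 8 weeks Kdr stood at 279.6, 302 and 388 CPM in wild type and at 79.7, 78.3, 71 and 95.4 CPM in homozygous hearts. No homozygous library reached the lowest wild type library at either age. Kdr had log2 changes of -0.74 ± 0.08 at 5 weeks (edgeR adjusted p = 2.08e-07) and -2.02 ± 0.14 at 8 weeks (edgeR adjusted p = 5.34e-07). Kdr differed between the ages by -1.25 ± 0.17 (edgeR adjusted p = 9.91e-07). Flt1, which binds VEGF and can act as a trap for it, was lower at both ages with no called difference between them (0.22 ± 0.17; edgeR adjusted p = 0.367). At 5 weeks Flt1 stood at 159, 165, 177 and 174 CPM in wild type and at 107, 98.2, 111 and 105 CPM in homozygous hearts. At 8 weeks Flt1 stood at 176, 179 and 179.7 CPM in wild type and at 172, 125, 126 and 95 CPM in homozygous hearts. At 8 weeks homozygous replicate 1 lay just below the wild type libraries and the other 3 well below. Flt1 had log2 changes of -0.68 ± 0.06 at 5 weeks (edgeR adjusted p = 9.58e-08) and -0.49 ± 0.15 at 8 weeks (edgeR adjusted p = 0.0118). Flt4, or VEGFR3, is the receptor of lymphatic endothelium and of some blood endothelium, and its effect changed direction. At 5 weeks Flt4 stood at 31.2, 31.2, 30.5 and 32.8 CPM in wild type and at 25.9, 22.6, 24.9 and 23.8 CPM in homozygous hearts. At 8 weeks Flt4 stood at 38.5, 35.2 and 39.1 CPM in wild type and at 63.3, 78.7, 72.2 and 50.1 CPM in homozygous hearts. Homozygous libraries were all below wild type at 5 weeks and all above it at 8 weeks. Flt4 had log2 changes of -0.37 ± 0.08 at 5 weeks (edgeR adjusted p = 0.000972) and 0.79 ± 0.14 at 8 weeks (edgeR adjusted p = 0.000384). With library size scaling the 5-week call was lost (-0.16 ± 0.08; edgeR adjusted p = 0.099). Between the ages Flt4 differed by 1.19 ± 0.16 (edgeR adjusted p = 9.59e-07). Beside Flt4, the summed level of 6 lymphatic markers, of which Ccl21a was at 0, was 128 to 373 CPM in homozygous and 90.3 to 98.7 CPM in wild type hearts at 8 weeks. At 5 weeks it was 85.3 to 96.4 against 93.1 to 101 CPM. The markers did not move together: of 5 tested, 4 were higher and 1, Prox1, lower at 8 weeks, and 1 was higher and 2 lower at 5 weeks. Their part in the result was not tested.

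Tie receptors and the phosphatase that dampens them were lower at 5 weeks, and Tie1 alone of the 3 was called at 8 weeks. Tie1, the partner receptor of Tek, was lower at both ages. At 5 weeks Tie1 stood at 209, 229.7, 243 and 234 CPM in wild type and at 126, 109, 142 and 115 CPM in homozygous hearts. At 8 weeks Tie1 stood at 191, 185 and 200.5 CPM in wild type and at 144, 127, 136 and 109 CPM in homozygous hearts. No overlap was seen at either age. Tie1 had log2 changes of -0.89 ± 0.08 at 5 weeks (edgeR adjusted p = 3.84e-08) and -0.60 ± 0.09 at 8 weeks (edgeR adjusted p = 0.000133). Tek, the receptor of the angiopoietins, was lower at 5 weeks, with a log2 difference of -0.71 ± 0.08 (edgeR adjusted p = 1.23e-06). At 5 weeks Tek stood at 87.4, 112, 99.6 and 99.6 CPM in wild type and at 55.7, 58.3, 69.6 and 60.1 CPM in homozygous hearts. At 8 weeks Tek stood at 72.9, 76.9 and 77.9 CPM in wild type and at 76.6, 66.9, 62.1 and 61.4 CPM in homozygous hearts. Tek groups were apart at 5 weeks, and at 8 weeks homozygous replicate 1 lay within the wild type range. The 8-week change of -0.21 ± 0.09 just missed the threshold (edgeR adjusted p = 0.0502) and was called with DESeq2 (adjusted p = 0.0402). Ptprb, or VE-PTP, removes phosphate from Tek and from junction proteins. At 5 weeks Ptprb stood at 165, 199, 191 and 191 CPM in wild type and at 117, 104, 113 and 112 CPM in homozygous hearts. At 8 weeks Ptprb stood at 144, 159.6 and 150.0 CPM in wild type and at 195, 152, 159 and 105 CPM in homozygous hearts. Homozygous values lay below wild type at 5 weeks, while at 8 weeks they ran from below to above the wild type libraries. Ptprb had log2 changes of -0.74 ± 0.07 at 5 weeks (edgeR adjusted p = 7.68e-08) and -0.01 ± 0.15 at 8 weeks (edgeR adjusted p = 0.944). Ptprb differed between the ages by 0.76 ± 0.17 (edgeR adjusted p = 0.00103).

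Among receptors for peptides and lipid mediators, Aplnr fell with its ligand and the other two changed direction. Aplnr (ENSMUSG00000044338, plus strand of chromosome 2 from 85136225 to 85139923) is the apelin receptor. At 5 weeks Aplnr stood at 146, 187, 177 and 184 CPM in wild type and at 88, 97.7, 92.5 and 105 CPM in homozygous hearts. At 8 weeks Aplnr stood at 106, 75.5 and 163 CPM in wild type and at 8.40, 6.02, 7.94 and 21.5 CPM in homozygous hearts. All homozygous libraries were below all wild type libraries at both ages, and replicate 4 was the highest of them at 8 weeks. Aplnr had log2 changes of -0.85 ± 0.08 at 5 weeks (edgeR adjusted p = 9.61e-08) and -3.42 ± 0.37 at 8 weeks (edgeR adjusted p = 7.73e-06). The 8-week level was 10.7-fold lower, and the difference between the ages was -2.54 ± 0.38 (edgeR adjusted p = 5.55e-06). Ramp2 forms the adrenomedullin receptor with Calcrl. At 5 weeks Ramp2 stood at 51.8, 59.4, 64 and 50.5 CPM in wild type and at 40.6, 32.3, 36.3 and 35.6 CPM in homozygous hearts. At 8 weeks Ramp2 stood at 43.5, 44 and 42.5 CPM in wild type and at 77.1, 85.7, 84.9 and 62.6 CPM in homozygous hearts. Homozygous values were all lower at 5 weeks and all higher at 8 weeks. Ramp2 had log2 changes of -0.64 ± 0.09 at 5 weeks (edgeR adjusted p = 1.13e-05) and 0.81 ± 0.11 at 8 weeks (edgeR adjusted p = 3.48e-05). S1pr1 is the receptor by which sphingosine 1-phosphate in blood keeps the endothelium tight. At 5 weeks S1pr1 stood at 91.3, 119, 98.9 and 86.3 CPM in wild type and at 74.2, 76.2, 84.8 and 71.7 CPM in homozygous hearts. At 8 weeks S1pr1 stood at 74.7, 83.1 and 84.1 CPM in wild type and at 162, 114, 109 and 98.2 CPM in homozygous hearts. S1pr1 groups were also apart at both ages, and replicate 1 was the highest homozygous library at 8 weeks. S1pr1 had log2 changes of -0.37 ± 0.09 at 5 weeks (edgeR adjusted p = 0.0023) and 0.56 ± 0.15 at 8 weeks (edgeR adjusted p = 0.00605). The 5-week call of S1pr1 was lost with library size scaling (-0.16 ± 0.09; edgeR adjusted p = 0.14). The differences between the ages were 1.48 ± 0.19 (edgeR adjusted p = 6.02e-07) for Ramp2 and 0.95 ± 0.20 (edgeR adjusted p = 0.000466) for S1pr1.

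Of the Notch genes, Dll4, the tip cell and arterial ligand, was lower at both ages. At 5 weeks Dll4 stood at 46.9, 40.4, 42.7 and 47.4 CPM in wild type and at 27.3, 22.6, 29.4 and 28.9 CPM in homozygous hearts. At 8 weeks Dll4 stood at 43, 42.5 and 50.9 CPM in wild type and at 11.7, 13.2, 13.7 and 18.8 CPM in homozygous hearts. No values overlapped, and homozygous replicate 4 was again nearest to wild type at 8 weeks. Dll4 had log2 changes of -0.71 ± 0.09 at 5 weeks (edgeR adjusted p = 4.20e-06) and -1.69 ± 0.14 at 8 weeks (edgeR adjusted p = 1.62e-06). Dll4 differed between the ages by -0.95 ± 0.19 (edgeR adjusted p = 0.00021). Notch4 is the Notch receptor most restricted to endothelium. At 5 weeks Notch4 stood at 80.7, 85.1, 77 and 73.1 CPM in wild type and at 44.7, 42.9, 46.3 and 53.5 CPM in homozygous hearts. At 8 weeks Notch4 stood at 72.4, 79.8 and 90.0 CPM in wild type and at 70.9, 74.2, 74.9 and 65.2 CPM in homozygous hearts. At 5 weeks the groups were apart, and at 8 weeks homozygous replicates 2 and 3 lay within the wild type range. Notch4 had log2 changes of -0.75 ± 0.08 at 5 weeks (edgeR adjusted p = 2.94e-07) and -0.21 ± 0.08 at 8 weeks (edgeR adjusted p = 0.0517). The 8-week change was called with DESeq2 (adjusted p = 0.0349), and the difference between the ages was 0.57 ± 0.15 (edgeR adjusted p = 0.0049).

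The transcription factors showed 3 patterns. Erg, an ETS factor that keeps endothelial identity, was lower at both ages. At 5 weeks Erg stood at 38.2, 48.7, 45.7 and 41.3 CPM in wild type and at 25.1, 20.0, 25.9 and 26.7 CPM in homozygous hearts. At 8 weeks Erg stood at 38, 32.4 and 32.2 CPM in wild type and at 24.2, 26.1, 26.1 and 24.9 CPM in homozygous hearts. Values of the genotypes were separate at both ages. Erg had log2 changes of -0.83 ± 0.10 at 5 weeks (edgeR adjusted p = 1.90e-06) and -0.46 ± 0.09 at 8 weeks (edgeR adjusted p = 0.000747). The call of the difference, 0.40 ± 0.14 (edgeR adjusted p = 0.0347), was lost without any of 7 single libraries (edgeR adjusted p from 0.0609 to 0.104), with library size scaling (edgeR adjusted p = 0.108), with no filter on low counts (edgeR adjusted p = 0.087) and in the fit of only the 4 groups compared (edgeR adjusted p = 0.0633). Sox18, a SOX factor of blood and lymphatic endothelium, was also lower at both ages. At 5 weeks Sox18 stood at 54.8, 47.3, 47.7 and 59.8 CPM in wild type and at 37.1, 34.2, 40.6 and 41.1 CPM in homozygous hearts. At 8 weeks Sox18 stood at 46.1, 46.8 and 72.3 CPM in wild type and at 18.6, 24.5, 24.9 and 41.3 CPM in homozygous hearts. Homozygous libraries were below wild type at both ages, with replicate 4 the highest at 8 weeks. Sox18 had log2 changes of -0.45 ± 0.09 at 5 weeks (edgeR adjusted p = 0.00037) and -1.03 ± 0.24 at 8 weeks (edgeR adjusted p = 0.00268). Sox17, the arterial member of the same family, changed direction. At 5 weeks Sox17 stood at 12.4, 16.1, 16.3 and 14.7 CPM in wild type and at 11.4, 9.30, 11.7 and 8.81 CPM in homozygous hearts. At 8 weeks Sox17 stood at 12.6, 15 and 14.6 CPM in wild type and at 31.5, 23.4, 20.6 and 20.8 CPM in homozygous hearts. Values were apart at both ages, below wild type at 5 weeks and above it at 8 weeks. Sox17 had log2 changes of -0.53 ± 0.13 at 5 weeks (edgeR adjusted p = 0.0027) and 0.75 ± 0.15 at 8 weeks (edgeR adjusted p = 0.000881). Between the ages Sox17 differed by 1.31 ± 0.28 (edgeR adjusted p = 0.000592).

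**Figure D3:**
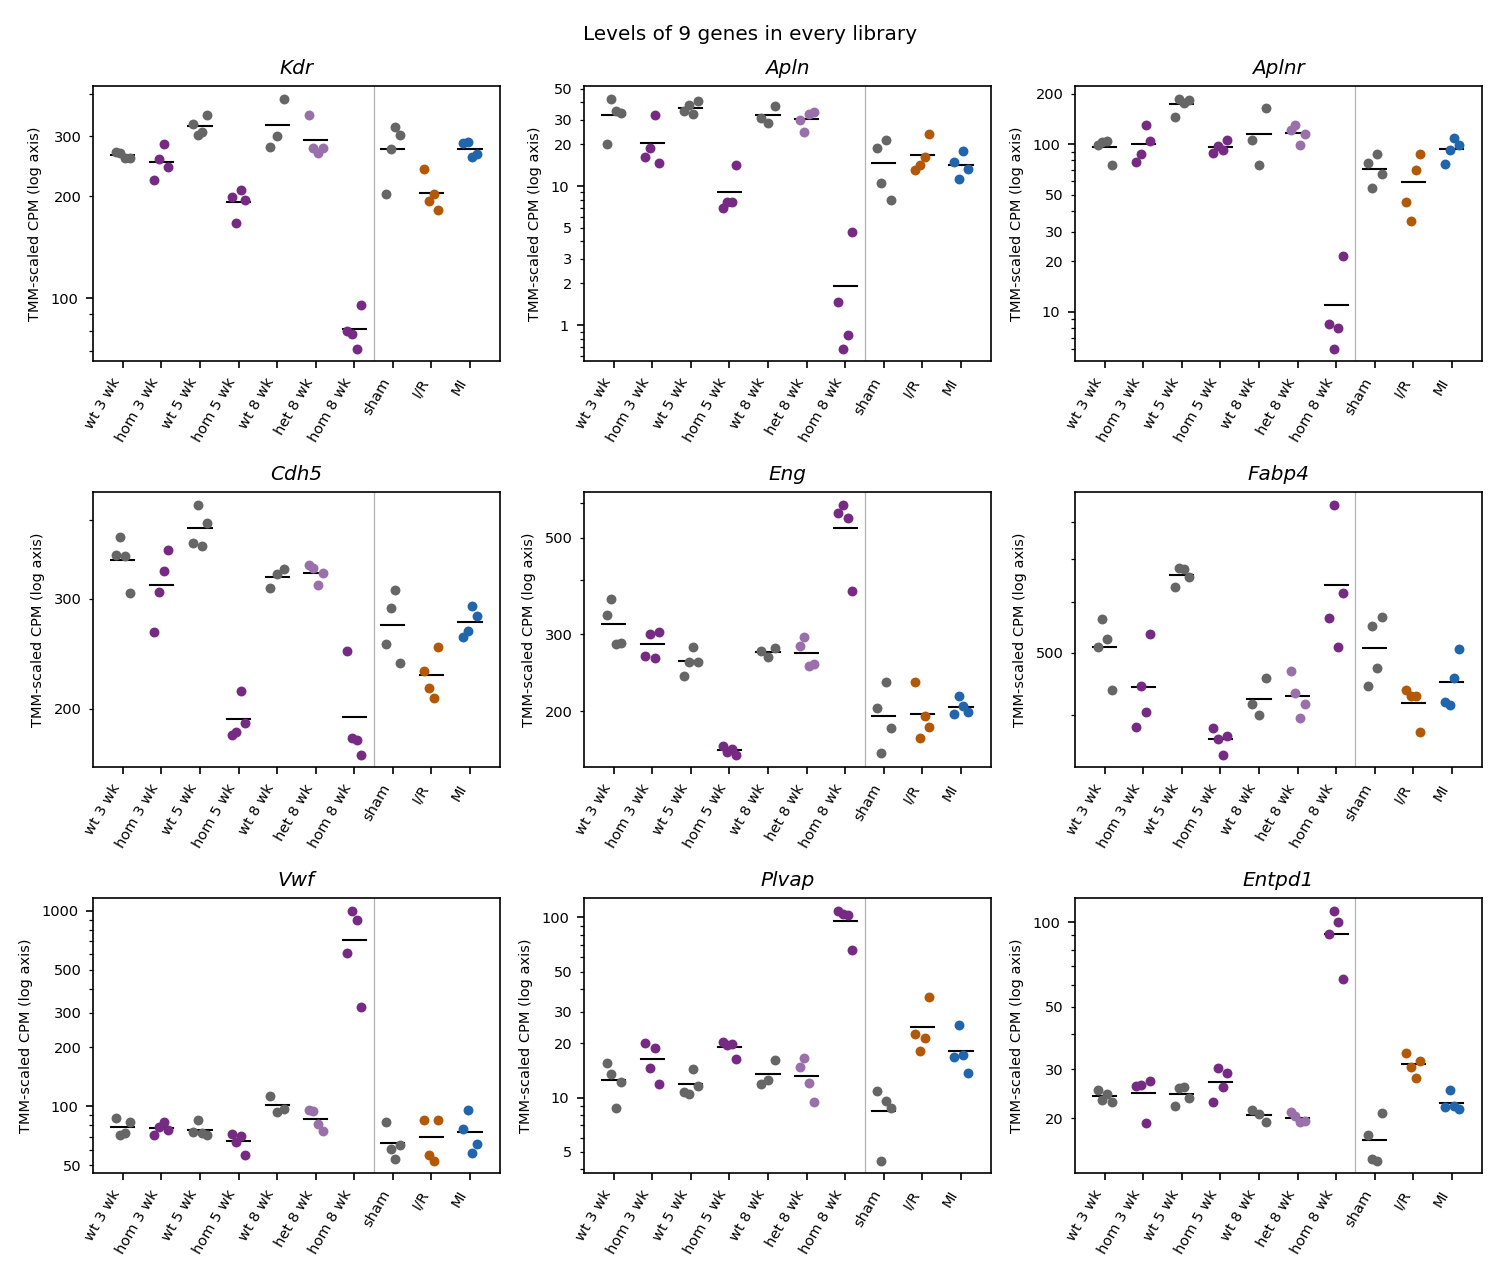
TMM-scaled CPM (log axes) of 9 members in every library of the 10 groups, with 1 point per library and a bar at the group mean. Homozygous points lie below all wild type points at 5 weeks in these genes except Plvap, Vwf and Entpd1, and at 8 weeks Apln, Aplnr and Kdr lie below and Vwf, Plvap and Entpd1 above all wild type points.

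Junction, adhesion and surface genes made up 11 members, of which 10 were lower and 1 higher at 5 weeks, and 6 lower and 4 higher at 8 weeks. Cdh5 (ENSMUSG00000031871, plus strand of chromosome 8 from 104101625 to 104144511), VE-cadherin of the adherens junction, was lower at both ages. At 5 weeks Cdh5 stood at 369, 424, 364 and 397 CPM in wild type and at 182, 184, 214 and 190.2 CPM in homozygous hearts. At 8 weeks Cdh5 stood at 312, 329 and 334 CPM in wild type and at 248, 179.7, 179 and 169 CPM in homozygous hearts. Groups were apart at both ages, with homozygous replicate 1 the highest of its group at 8 weeks. Cdh5 had log2 changes of -1.01 ± 0.07 at 5 weeks (edgeR adjusted p = 2.11e-09) and -0.77 ± 0.12 at 8 weeks (edgeR adjusted p = 0.000122). The difference between the ages, 0.27 ± 0.15, was not called (edgeR adjusted p = 0.172). Pcdh12, a protocadherin of endothelial contacts, fell further. At 5 weeks Pcdh12 stood at 48.5, 57.4, 51.2 and 57.4 CPM in wild type and at 27.6, 25.1, 32.2 and 29.2 CPM in homozygous hearts. At 8 weeks Pcdh12 stood at 39.5, 43.7 and 48.8 CPM in wild type and at 10.2, 7.01, 7.88 and 13.3 CPM in homozygous hearts. All homozygous values were below all wild type values. Pcdh12 had log2 changes of -0.91 ± 0.09 at 5 weeks (edgeR adjusted p = 1.10e-07) and -2.22 ± 0.17 at 8 weeks (edgeR adjusted p = 8.83e-07). Its difference was -1.29 ± 0.22 (edgeR adjusted p = 3.53e-05). Pecam1, or CD31, an adhesion molecule of endothelium, platelets and leukocytes, was lower at 5 weeks and higher at 8 weeks. At 5 weeks Pecam1 stood at 236, 278, 259.8 and 258 CPM in wild type and at 146, 159, 153 and 149.8 CPM in homozygous hearts. At 8 weeks Pecam1 stood at 201, 222 and 222 CPM in wild type and at 326, 318, 303 and 195 CPM in homozygous hearts. At 8 weeks homozygous replicates 1 to 3 were above the wild type libraries and replicate 4 was below them. Pecam1 had log2 changes of -0.76 ± 0.07 at 5 weeks (edgeR adjusted p = 2.48e-08) and 0.38 ± 0.15 at 8 weeks (edgeR adjusted p = 0.0366). The 8-week call was lost without any of 6 of the 7 libraries (edgeR adjusted p from 0.0738 to 0.124) and held without replicate 4, while the difference between the ages was 1.17 ± 0.15 (edgeR adjusted p = 3.16e-07).

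Eng, Emcn and Plvap were the other members of the surface group that were higher at 8 weeks. Eng (ENSMUSG00000026814, plus strand of chromosome 2 from 32646595 to 32682669), endoglin, is a co-receptor for BMP and TGF-beta ligands. At 5 weeks Eng stood at 241, 259, 281 and 259 CPM in wild type and at 167, 161, 164 and 159 CPM in homozygous hearts. At 8 weeks Eng stood at 275, 267 and 279 CPM in wild type and at 571, 596, 555 and 377 CPM in homozygous hearts. Homozygous values lay below wild type at 5 weeks and above it at 8 weeks, with replicate 4 the lowest of the group. Eng had log2 changes of -0.68 ± 0.06 at 5 weeks (edgeR adjusted p = 8.06e-08) and 0.91 ± 0.14 at 8 weeks (edgeR adjusted p = 0.000102). Between the ages Eng differed by 1.62 ± 0.16 (edgeR adjusted p = 7.04e-09). Emcn, endomucin, is a sialomucin of capillary, venous and endocardial endothelium. At 5 weeks Emcn stood at 52.5, 57.8, 70.4 and 58 CPM in wild type and at 38.8, 39.5, 41.8 and 39.3 CPM in homozygous hearts. At 8 weeks Emcn stood at 45.6, 40.1 and 54.9 CPM in wild type and at 90.1, 91.4, 83.1 and 53.2 CPM in homozygous hearts. At 8 weeks 3 homozygous libraries lay above wild type and replicate 4 lay within its range. Emcn had log2 changes of -0.58 ± 0.08 at 5 weeks (edgeR adjusted p = 1.55e-05) and 0.74 ± 0.17 at 8 weeks (edgeR adjusted p = 0.00216). Emcn had a difference of 1.34 ± 0.21 (edgeR adjusted p = 1.02e-05). Plvap (ENSMUSG00000034845, minus strand of chromosome 8 from 71497765 to 71511752) forms the diaphragms of fenestrae and caveolae, and it was the single member higher at both ages. At 5 weeks Plvap stood at 10.8, 10.5, 14.4 and 11.6 CPM in wild type and at 20.5, 19.6, 19.8 and 16.3 CPM in homozygous hearts. At 8 weeks Plvap stood at 11.9, 12.5 and 16.1 CPM in wild type and at 109, 104, 103 and 65.6 CPM in homozygous hearts. Homozygous libraries were above all wild type libraries at both ages, by 1.61-fold and 6.97-fold. Plvap had log2 changes of 0.69 ± 0.12 at 5 weeks (edgeR adjusted p = 0.000134) and 2.80 ± 0.22 at 8 weeks (edgeR adjusted p = 8.83e-07). Between the ages Plvap differed by 2.14 ± 0.33 (edgeR adjusted p = 8.52e-06). Beside these genes, the summed level of 3 endocardial markers was 57.1 to 159 CPM in homozygous and 23.9 to 29.9 CPM in wild type hearts at 8 weeks, and 18.4 to 23.9 against 25 to 30.3 CPM at 5 weeks. Its part in these results was not tested.

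The remaining surface genes were Podxl, Robo4, Icam2, Esam and Cldn5. Podxl, a sialomucin of the luminal surface, ranged over 86.6 to 342 CPM in all libraries, and its log2 change went from -0.60 ± 0.08 at 5 weeks to -1.40 ± 0.15 at 8 weeks, a called difference of -0.78 ± 0.18 (edgeR adjusted p = 0.00125). Robo4, a guidance receptor that stabilises vessels, was lower, with log2 changes of -0.79 ± 0.09 and -0.82 ± 0.09. Icam2 and Esam, adhesion molecules at endothelial contacts, were lower at both ages, with log2 changes of -0.46 ± 0.12 and -0.29 ± 0.11 at 8 weeks. Scaling to library size ended the 8-week calls of Icam2 (-0.29 ± 0.15; edgeR adjusted p = 0.102) and Esam (-0.14 ± 0.11; edgeR adjusted p = 0.284). The call of Esam was also lost with the replicate block (edgeR adjusted p = 0.0881) and without any of 5 single libraries (edgeR adjusted p from 0.0627 to 0.163). Cldn5, the tight junction claudin of endothelium, was lower at 5 weeks, with a log2 difference of -0.63 ± 0.11 (edgeR adjusted p = 8.72e-05), a call lost in the fit of all 39 libraries (edgeR adjusted p = 0.121), and its 8-week value was 0.33 ± 0.19 (edgeR adjusted p = 0.136).

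Of the secreted proteins, Vwf (ENSMUSG00000001930, plus strand of chromosome 6 from 125546774 to 125686679), von Willebrand factor, which binds platelets to the vessel wall, rose most. At 5 weeks Vwf stood at 74, 84.8, 73.2 and 71.1 CPM in wild type and at 72.1, 65.7, 70.5 and 56.1 CPM in homozygous hearts. At 8 weeks Vwf stood at 113, 93.8 and 96.8 CPM in wild type and at 609, 1003, 895 and 322 CPM in homozygous hearts. At 5 weeks the groups overlapped, and at 8 weeks every homozygous library was above wild type, although replicates 2 and 4 of that group differed widely. Vwf had log2 changes of -0.20 ± 0.08 at 5 weeks (edgeR adjusted p = 0.0586) and 2.77 ± 0.31 at 8 weeks (edgeR adjusted p = 9.63e-06). The 8-week level was 6.84-fold higher and the difference between the ages was 3.00 ± 0.31 (edgeR adjusted p = 9.43e-09). Vwf is also made by megakaryocytes, and the summed level of the platelet markers was 20.9 to 34.8 CPM in homozygous and 12.7 to 15.3 CPM in wild type hearts at 8 weeks, and 33.5 to 40.5 against 15.3 to 16.6 CPM at 5 weeks. Their part in the result was not tested. Egfl7, which is secreted by endothelium and hosts the microRNA gene Mir126a, was lower at both ages. At 5 weeks Egfl7 stood at 176, 177, 187 and 185 CPM in wild type and at 139, 117, 132 and 131 CPM in homozygous hearts. At 8 weeks Egfl7 stood at 136, 137 and 147 CPM in wild type and at 118, 123, 131 and 122 CPM in homozygous hearts. Values were apart at both ages, by little at 8 weeks. Egfl7 had log2 changes of -0.48 ± 0.07 at 5 weeks (edgeR adjusted p = 8.39e-06) and -0.21 ± 0.07 at 8 weeks (edgeR adjusted p = 0.0268). The 8-week call was lost with library size scaling (-0.04 ± 0.09; edgeR adjusted p = 0.72), in the fit of all 39 libraries (-0.18 ± 0.12; edgeR adjusted p = 0.211), with the replicate block (edgeR adjusted p = 0.0548) and without wild type replicate 3 (edgeR adjusted p = 0.0725). Mmrn2, a matrix protein of the vessel wall, was lower at both ages. At 5 weeks Mmrn2 stood at 68.6, 90.9, 84.6 and 83.2 CPM in wild type and at 47.6, 45.8, 55.6 and 46.5 CPM in homozygous hearts. At 8 weeks Mmrn2 stood at 76.8, 73.2 and 80.8 CPM in wild type and at 73.9, 61.5, 61.1 and 46.9 CPM in homozygous hearts. At 8 weeks homozygous replicate 1 lay within the wild type range. Mmrn2 had log2 changes of -0.74 ± 0.09 at 5 weeks (edgeR adjusted p = 1.23e-06) and -0.36 ± 0.12 at 8 weeks (edgeR adjusted p = 0.0172). Without wild type replicate 3 (edgeR adjusted p = 0.0518) and with library size scaling (-0.21 ± 0.10; edgeR adjusted p = 0.0835) the 8-week call was lost.

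The capillary metabolism and transport genes were lower in 5 of 6 at 5 weeks, and 4 of 6 were higher at 8 weeks. Gpihbp1 (ENSMUSG00000022579, plus strand of chromosome 15 from 75596628 to 75599481) anchors lipoprotein lipase on the capillary wall. At 5 weeks Gpihbp1 stood at 78.6, 95.1, 94.9 and 83.7 CPM in wild type and at 41.4, 45.8, 45 and 54.5 CPM in homozygous hearts. At 8 weeks Gpihbp1 stood at 65.2, 68.7 and 61.7 CPM in wild type and at 138, 179, 157 and 93.8 CPM in homozygous hearts. The genotypes were separate at both ages, in opposite directions. Gpihbp1 had log2 changes of -0.91 ± 0.09 at 5 weeks (edgeR adjusted p = 9.50e-08) and 1.10 ± 0.16 at 8 weeks (edgeR adjusted p = 9.72e-05). Gpihbp1 differed between the ages by 2.04 ± 0.20 (edgeR adjusted p = 6.34e-09). Fabp4 (ENSMUSG00000062515, minus strand of chromosome 3 from 10204088 to 10208576) carries fatty acids in capillary endothelium and also in adipocytes and macrophages. At 5 weeks Fabp4 stood at 634, 678, 675 and 657 CPM in wild type and at 381, 367, 347 and 372 CPM in homozygous hearts. At 8 weeks Fabp4 stood at 416, 399.8 and 457 CPM in wild type and at 567, 852, 512 and 619 CPM in homozygous hearts. Fabp4 values were apart at both ages, and replicate 2 was the highest at 8 weeks. Fabp4 had log2 changes of -0.85 ± 0.06 at 5 weeks (edgeR adjusted p = 3.13e-09) and 0.56 ± 0.15 at 8 weeks (edgeR adjusted p = 0.00612). Between the ages Fabp4 differed by 1.44 ± 0.17 (edgeR adjusted p = 1.09e-07). Adipocyte markers summed to 6.88 to 24.2 CPM in homozygous and 3.29 to 4.86 CPM in wild type hearts at 8 weeks, and macrophage markers to 1006 to 1754 and 307 to 386 CPM. At 5 weeks macrophage markers stood at 971 to 1212 against 327 to 344 CPM. The part of these cells in the Fabp4 values was not tested.

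Entpd1 (ENSMUSG00000048120, plus strand of chromosome 19 from 40612366 to 40741602), or CD39, an enzyme on endothelium and leukocytes that degrades ATP, was higher at 8 weeks only. At 5 weeks Entpd1 stood at 22.2, 25.8, 25.9 and 23.7 CPM in wild type and at 22.8, 30.2, 25.9 and 29.1 CPM in homozygous hearts. At 8 weeks Entpd1 stood at 21.4, 20.8 and 19.5 CPM in wild type and at 91, 110.3, 100.4 and 63 CPM in homozygous hearts. Values overlapped at 5 weeks, and at 8 weeks the lowest homozygous library, replicate 4, was well above the highest wild type library. Entpd1 had log2 changes of 0.15 ± 0.10 at 5 weeks (edgeR adjusted p = 0.238) and 2.12 ± 0.15 at 8 weeks (edgeR adjusted p = 6.92e-07). Between the ages Entpd1 differed by 2.0 ± 0.19 (edgeR adjusted p = 1.99e-09). The macrophage sums given for Fabp4 apply here too. Of 8 macrophage markers 7 were higher and 1 lower at 5 weeks, and 8 were higher at 8 weeks. The part of macrophages in the Entpd1 values was not tested. Rgcc, a cell cycle regulator of endothelium, changed direction. At 5 weeks Rgcc stood at 24.3, 32.2, 30.1 and 28.4 CPM in wild type and at 18.3, 15.3, 20.0 and 16.9 CPM in homozygous hearts. At 8 weeks Rgcc stood at 25.7, 28.9 and 25 CPM in wild type and at 65, 62.6, 52.3 and 31.8 CPM in homozygous hearts. No overlap was seen at either age, with replicate 4 nearest to wild type at 8 weeks. Rgcc had log2 changes of -0.71 ± 0.11 at 5 weeks (edgeR adjusted p = 2.55e-05) and 0.97 ± 0.20 at 8 weeks (edgeR adjusted p = 0.00115). Between the ages Rgcc differed by 1.70 ± 0.23 (edgeR adjusted p = 1.59e-06). Aqp1, the water channel of capillaries, was lower, with log2 changes of -1.16 ± 0.13 at 5 weeks and -0.97 ± 0.18 at 8 weeks. Nos3, the endothelial nitric oxide synthase, was lower at 5 weeks, with a log2 difference of -0.71 ± 0.09 (edgeR adjusted p = 2.65e-06) and stood at -0.10 ± 0.10 at 8 weeks (edgeR adjusted p = 0.421).

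Libraries of the 8-week homozygous group were not alike. Replicate 4 was the one nearest to wild type in 20 of the 32 members called at 8 weeks, against 30.0% of all called genes, and replicate 1 was nearest in 8 of 32, against 50.3% of called genes. Replicate 2 was nearest in 0 of 32, against 8.58% of called genes. Without replicate 4 the counts at 8 weeks were 13 members higher and 18 lower. Mitochondrially encoded genes held 15.45% of counts in homozygous replicate 1, within the wild type range of 15.24% to 16.45%. In replicates 2, 3 and 4 they held 8.73%, 10.58% and 8.27%. The part of this in the members' values was not tested.

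Markers of other cell types moved with genotype. At 5 weeks fibroblast markers were higher in 8 of 8 (5462 to 7023 against 1926 to 2081 CPM summed), macrophage markers higher in 7 of 8, smooth muscle and pericyte markers lower in 9 of 9 (1299.7 to 1369.9 against 2059 to 2309 CPM), and cardiomyocyte markers lower in 8 of 10 (48854 to 57948 against 72760.2 to 77935 CPM). Red cell markers were lower in 5 of 5 at 5 weeks and called in none at 8 weeks. At 8 weeks macrophage markers were higher in 8 of 8, fibroblast markers in 7 of 8 (5093 to 10056 against 1482 to 1617 CPM) and platelet markers in 3 of 3 tested, while 7 of 10 cardiomyocyte markers and 5 of 9 smooth muscle and pericyte markers were lower. The 5 endothelial markers, all members, summed to 643 to 737 against 1178 to 1277 CPM at 5 weeks. At 8 weeks these 5 summed to 603 to 840.3 against 1008 to 1186 CPM, with 3 called lower, 1 higher and 1 not called. The whole member list summed to 3243 to 3637 against 5212 to 5846 CPM at 5 weeks. At 8 weeks its sums overlapped, at 4117 to 5639 CPM in homozygous and 4985 to 5503 CPM in wild type hearts. Atrial markers varied within groups, with a sum of 8.77 to 291 CPM in heterozygous hearts, and Bmp10 of this list was at 0 throughout the mutant set. The part of these shifts in the members' changes was not tested.

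**Figure D4:**
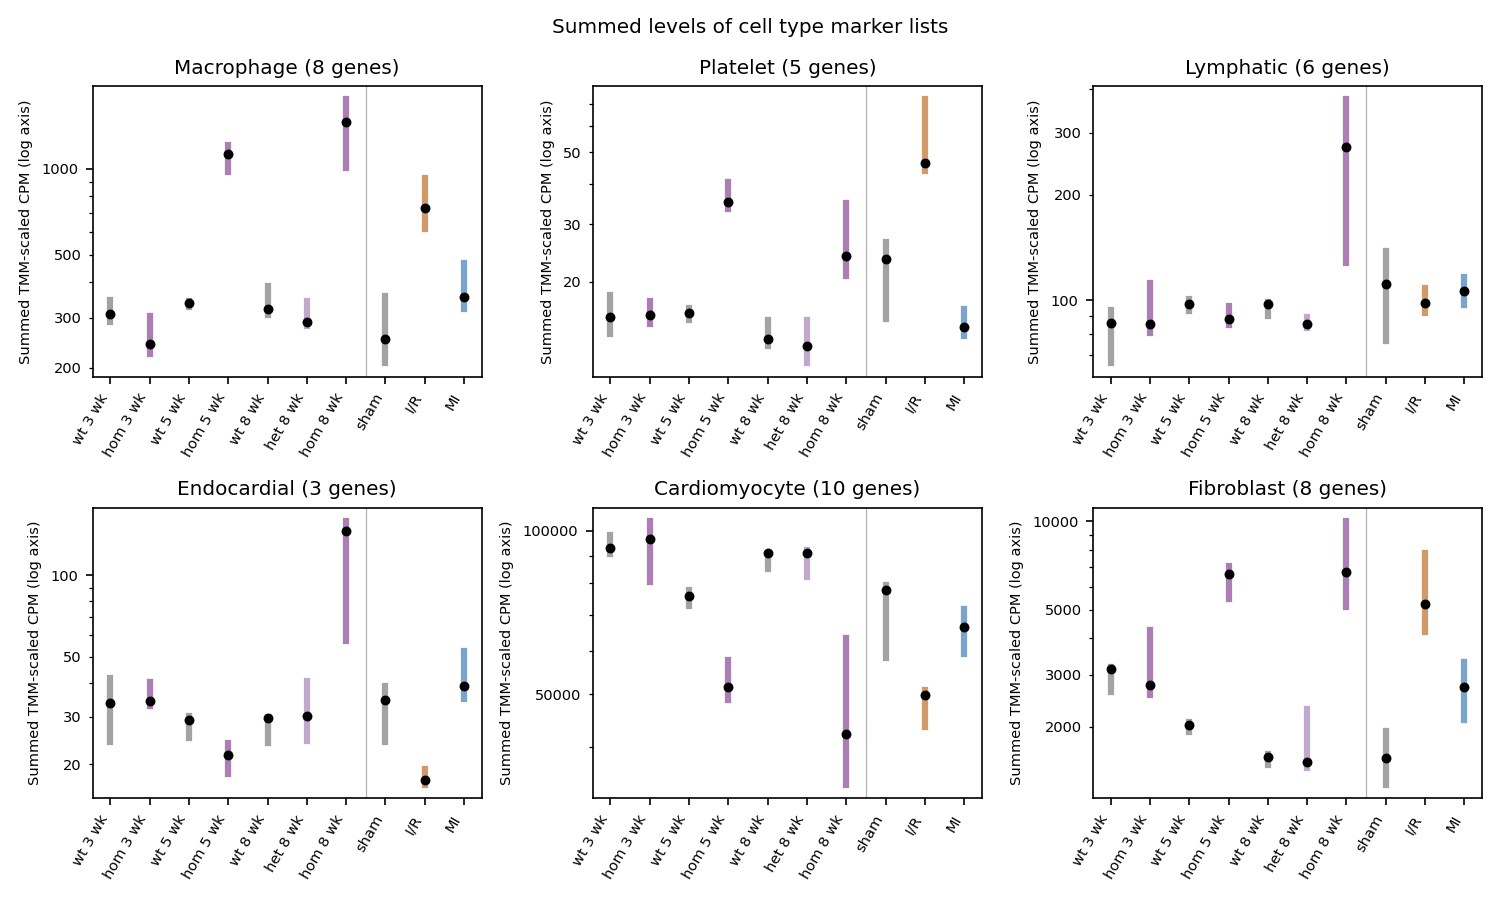
Summed TMM-scaled CPM (log axes) of 6 marker lists in the 10 groups, with a bar from the lowest to the highest library and a point at the median. At 5 and 8 weeks the homozygous ranges of the macrophage, platelet and fibroblast lists lie above wild type and that of the cardiomyocyte list lies below it, and the lymphatic and endocardial lists are high at 8 weeks.

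No genotype difference was detectable on this list at 3 weeks. edgeR called 0 of 39 members and 0.0% of all genes, DESeq2 called 0.879% of genes, and at an unadjusted p below 0.05 4 members passed (Angpt1, Apln, Notch4 and Erg) against 11.3% of genes. No member had groups that were apart (5.83% of genes). Member changes ran from -0.68 to 0.38 with standard errors of 0.07 to 0.27. Apln had the most negative value: it stood at 20.1, 42.6, 34.7 and 33.2 CPM in wild type and at 16.3, 18.6, 32.6 and 14.6 CPM in homozygous hearts. The groups overlapped, and the log2 change was -0.68 ± 0.27 (edgeR adjusted p = 0.401). The genotype effect at 5 weeks was lower than at 3 weeks for 26 members and higher for 0, against 9.29% and 11.1% of genes (20.4% in either direction). The smallest p-values were those of Tie1 (-0.96 ± 0.13; edgeR adjusted p = 4.21e-06), Tek (-0.85 ± 0.12; edgeR adjusted p = 6.78e-06) and Cdh5 (-0.88 ± 0.14; edgeR adjusted p = 2.70e-05), and the most negative value that of Aqp1 (-1.36 ± 0.24; edgeR adjusted p = 0.000138). The calls of Angpt2, Apln, Esam, Ramp2 and Vegfa were lost when some single libraries were left out. Library size scaling left 16 of the 26 calls, without Vegfa, Angpt2, Apln, Ramp2, S1pr1, Esam, Emcn, Podxl, Eng and Gpihbp1. The 5-week libraries carry names of another kind than the 3-week libraries too, and the part of any separate handling was not tested.

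In heterozygous hearts at 8 weeks no member was called, with changes between -0.33 and 0.17 and standard errors of 0.07 to 0.34. At an unadjusted p below 0.05, 0 members and 2.28% of all genes passed in edgeR. Groups were apart for 3 of 39 members, Ptprb, Ramp2 and Aqp1 (5.41% of genes). Apln stood at 29.7, 24.6, 32.8 and 34.2 CPM and Aplnr at 121, 131, 98.6 and 115 CPM in heterozygous libraries. Vwf stood at 95.1, 94.3, 81.6 and 75.1 CPM and Plvap at 14.8, 16.6, 12 and 9.45 CPM there, so that each of these 4 genes overlapped with its wild type values. Against heterozygous hearts, homozygous hearts had 14 members higher and 19 lower (32.0% and 30.0% of genes, 61.9% in either direction), with Entpd1 (2.15 ± 0.14; edgeR adjusted p = 2.27e-07) and Kdr (-1.88 ± 0.13; edgeR adjusted p = 3.40e-07) among the smallest p-values. Leaving out 1 library gave 14 to 16 higher and 16 to 20 lower there, and the calls of Flt1, Esam and Mmrn2 were lost in several such fits. In wild type hearts 4 members were lower at 8 than at 3 weeks and 0 higher (3.67% and 4.73% of genes, 8.4% in either direction). They were Ramp2 (-0.59 ± 0.14; edgeR adjusted p = 0.00638), Gpihbp1 (-0.52 ± 0.15; edgeR adjusted p = 0.0196), Notch4 (-0.40 ± 0.11; edgeR adjusted p = 0.0199) and Sox18 (-0.61 ± 0.19; edgeR adjusted p = 0.0329), and the last 3 calls were lost when 1 of several libraries was left out.

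At 3 days after ischemia-reperfusion the myocardium away from the infarct showed 2 members that rose under each alternative run. Plvap stood at 10.9, 4.47, 9.61 and 8.71 CPM in sham hearts and at 22.6, 18, 21.4 and 36 CPM after ischemia-reperfusion. Entpd1 stood at 17.5, 14.3, 14.2 and 20.9 CPM and at 34.2, 30.6, 27.8 and 32.1 CPM. For both genes every injured library was above every sham library. Plvap was higher by 1.53 ± 0.26 (edgeR adjusted p = 0.00042) and Entpd1 by 0.90 ± 0.12 (edgeR adjusted p = 6.68e-05). Of all genes 31.0% were called, 27.6% had groups that were apart, and 6 of 39 members were apart. Pcdh12 stood at 34.6, 35.8, 41.3 and 29.1 CPM in sham and at 24.6, 18.7, 26.5 and 24.3 CPM in injured hearts, apart from each other, and was lower, with a log2 difference of -0.58 ± 0.13 (edgeR adjusted p = 0.00328). Kdr (-0.43 ± 0.12; edgeR adjusted p = 0.015), Vegfb (-0.32 ± 0.11; edgeR adjusted p = 0.0363), Fabp4 (-0.29 ± 0.10; edgeR adjusted p = 0.0374) and Cdh5 (-0.27 ± 0.09; edgeR adjusted p = 0.0402) were lower, and Sox18 higher (0.28 ± 0.10; edgeR adjusted p = 0.0447). These 6 calls were lost with age-matched shams alone (edgeR adjusted p from 0.0621 to 0.446), and with library size scaling, which moved the median of all genes by 0.21 and the share of higher genes among those called from 54.5% to 90.7%, no member was called lower. Endocardial markers summed to 16.8 to 19.3 CPM against 24.2 to 38.9 CPM in sham hearts. Macrophage markers were higher in 7 of 8 (616 to 929.8 against 208 to 357 CPM in sham hearts), and their part in the rise of Entpd1 was not tested.

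Infarction hearts, sampled 8 weeks after permanent closure, were compared with the same shams, so the 2 injury comparisons share their controls. Flt4 had the smallest p among the members that rose. It stood at 28.7, 28.2, 26.6 and 28.1 CPM in sham and at 45, 47, 42.4 and 40.5 CPM in infarction hearts, with no overlap, and was higher by 0.65 ± 0.07 (edgeR adjusted p = 0.000189). Sox18 (0.44 ± 0.10; edgeR adjusted p = 0.0103), Plvap (1.09 ± 0.26; edgeR adjusted p = 0.0157) and Entpd1 (0.45 ± 0.12; edgeR adjusted p = 0.0313) were also higher and Rgcc lower (-0.49 ± 0.13; edgeR adjusted p = 0.027), against 11.4% of genes called. Groups were apart for 6 of 39 members (16.7% of genes). The Plvap call was lost without infarction replicate 2 (log2 change 0.90; edgeR adjusted p = 0.0628), that of Sox18 with age-matched shams alone (edgeR adjusted p = 0.0648) and in the fit of all 39 libraries (edgeR adjusted p = 0.0907), and those of Entpd1 and Rgcc without any of 5 and of 4 single libraries (edgeR adjusted p from 0.0548 to 0.103 and from 0.0647 to 0.0938). With the replicate block Entpd1 (edgeR adjusted p = 0.0514) and Rgcc (edgeR adjusted p = 0.109) were not called, and Rgcc was not called with library size scaling (edgeR adjusted p = 0.0608) or with age-matched shams (edgeR adjusted p = 0.0987). The Flt4 call held under each alternative run. Scaling to library size moved the median of all genes by 0.11 and the share of higher genes from 58.1% to 81.6%. Adipocyte markers were higher in 4 of 4 tested (3.21 to 101 CPM against 0.858 to 11.8 in sham hearts).

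Compared directly, ischemia-reperfusion and infarction differed in 7 members, 3 higher and 4 lower after ischemia-reperfusion (11.2% and 8.84% of genes, 20.1% in either direction). Flt4 was lower, with a log2 difference of -0.46 ± 0.07 (edgeR adjusted p = 0.000519) and Pcdh12, at -0.67 ± 0.13 (edgeR adjusted p = 0.00197). S1pr1, which stood at 129.9, 105, 87.6 and 94.4 CPM after ischemia-reperfusion and 65.4, 87.6, 76.2 and 67.7 CPM after infarction, was higher by 0.49 ± 0.12 (edgeR adjusted p = 0.0107). The lowest ischemia-reperfusion and the highest infarction library were almost equal, and 8 of 39 members were apart in all (24.7% of genes). Entpd1 was higher by 0.45 ± 0.12 (edgeR adjusted p = 0.0129). Kdr and Cdh5 were called lower and Sox17 higher, and these 3 calls were lost when single libraries were left out. Kdr and Cdh5 also lost theirs with library size scaling, Cdh5 with no filter, and Cdh5 and Sox17 with the replicate block. For Sox17, which stood at 32.1, 20.5, 15.5 and 17.2 CPM and 11.6, 10.5, 15.1 and 14.8 CPM, leaving out ischemia-reperfusion replicate 1, the highest library, gave 0.45 (edgeR adjusted p = 0.139). Library size scaling moved the median of all genes by 0.12 and the share of higher genes from 55.9% to 80.5%.

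**Figure D5:**
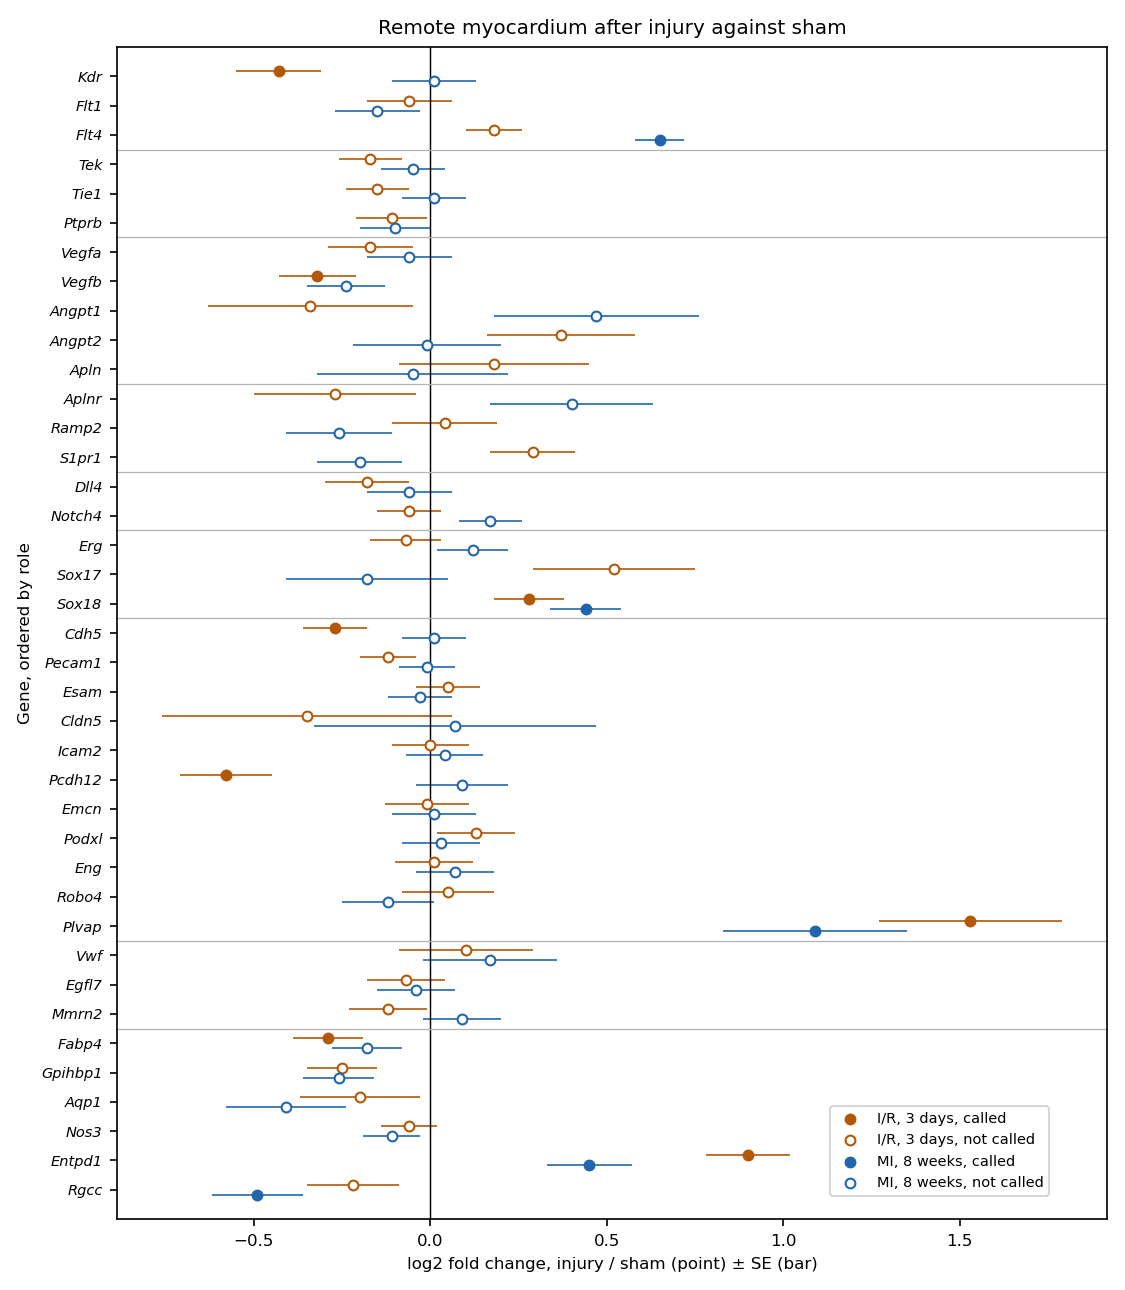
Log2 fold change against sham (x axis) of each member (rows) after ischemia-reperfusion (orange) and after infarction (blue), with bars of 1 standard error and filled points where the change was called. Plvap, Entpd1 and Sox18 are called higher after both, Flt4 after infarction, and Pcdh12 has the most negative value after ischemia-reperfusion.

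Genes of the same pathways outside the list were followed in 12 lists of 78 genes. Of 76 tested at 3 weeks 0 were called, and at 5 weeks 15 were higher and 40 lower. At 8 weeks 35 of 77 were higher and 18 lower, and the difference between 5 and 8 weeks was called toward higher for 32 and toward lower for 8. After ischemia-reperfusion 20 were higher and 7 lower, and after infarction 8 were higher and 0 lower. The shares of all genes called are those given for the members.

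VEGF and semaphorin partners moved in both directions. At 5 weeks 5 of 8 were lower and 2 higher, and at 8 weeks 3 were lower and 4 higher. Plxnd1, the semaphorin receptor of vessels, went from -0.65 ± 0.07 at 5 weeks (edgeR adjusted p = 2.02e-07) to -1.85 ± 0.16 at 8 weeks (edgeR adjusted p = 1.77e-06). Nrp2, a co-receptor of VEGF and semaphorins, went from -0.74 ± 0.09 to -1.43 ± 0.11. Vegfd, a ligand of Flt4, was higher at both ages, and at 8 weeks by 2.60 ± 0.32 (edgeR adjusted p = 1.94e-05). Of 8 Notch partners 5 were lower and 1 higher at 5 weeks, and 2 were lower and 1 higher at 8 weeks. The Notch ligand Jag2 was lower, with log2 changes of -0.73 ± 0.09 and -0.95 ± 0.09, the Notch target Heyl was lower, with a log2 difference of -0.74 ± 0.12, at 8 weeks, and Rbpj, the DNA-binding partner of Notch, was higher by 0.75 ± 0.09 and 0.33 ± 0.09.

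Among 14 further transcription factors of endothelium 11 were lower and 1 higher at 5 weeks, and 6 were lower and 3 higher at 8 weeks. Sox7, of the same SOX subgroup as Sox17 and Sox18, was lower at both ages (-1.09 ± 0.14 and -1.68 ± 0.14; at 8 weeks edgeR adjusted p = 1.28e-06). Epas1, the hypoxia factor HIF2-alpha, was lower, with log2 changes of -0.77 ± 0.06 and -0.68 ± 0.13. Ets1, an ETS factor like Erg, went from -0.77 ± 0.08 to -1.39 ± 0.15, and Meox2, a homeobox factor of heart capillaries, from -0.51 ± 0.11 to -1.56 ± 0.16 (edgeR adjusted p = 5.40e-06). Lyl1 was higher at both ages (0.67 ± 0.16 and 0.91 ± 0.26), and Klf4, a factor induced by flow, was higher at 8 weeks by 0.98 ± 0.17. Of 6 genes of capillary lipid uptake and caveolae all were lower at 5 weeks and 4 at 8 weeks. Cav1, the coat protein of caveolae, was lower, with log2 changes of -0.86 ± 0.07 and -0.92 ± 0.13, and Cavin2 at -0.86 ± 0.07 and -0.55 ± 0.16. Cavin1 stood at -0.29 ± 0.06 (edgeR adjusted p = 0.00111) and -0.37 ± 0.09 (edgeR adjusted p = 0.00428). None of this list was higher at 8 weeks, when Gpihbp1 and Fabp4 were.

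Genes of the BMP branch in which Eng acts were called in 1 higher and 1 lower of 6 at 5 weeks and in 4 higher at 8 weeks. Smad7, an inhibitory SMAD, was higher by 0.88 ± 0.11 (edgeR adjusted p = 2.18e-05) and the BMP target Id3 by 0.96 ± 0.13 (edgeR adjusted p = 4.73e-05) at 8 weeks. At 5 weeks Id1 was lower, with a log2 difference of -0.49 ± 0.10, and the receptor Bmpr2 higher by 0.52 ± 0.20. Adm, the ligand of the Ramp2 receptor, changed direction with Ramp2, from -0.65 ± 0.16 (edgeR adjusted p = 0.0024) to 1.68 ± 0.19 (edgeR adjusted p = 1.14e-05). Calcrl, which forms the receptor with Ramp2, was lower at 5 weeks, with a log2 difference of -0.49 ± 0.08, and stood at -0.01 ± 0.13 at 8 weeks (edgeR adjusted p = 0.956). Sphk1, which makes the lipid that S1pr1 senses, rose at both ages, by 1.27 ± 0.21 and 4.27 ± 0.32 (edgeR adjusted p = 7.96e-07). S1pr3, a related receptor, was lower, with log2 changes of -0.44 ± 0.07 and -1.80 ± 0.30.

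Vessel type genes differed by type. Of 5 arterial genes 3 were lower at 5 weeks and 3 higher at 8 weeks; Gja4, an arterial connexin, went from -0.61 ± 0.13 to 1.27 ± 0.16 (edgeR adjusted p = 2.68e-05), Unc5b from -0.47 ± 0.09 to 0.44 ± 0.10, and Bmx was higher at 8 weeks by 2.09 ± 0.24. Efnb2 was lower at 5 weeks, with a log2 difference of -0.74 ± 0.07, and stood at -0.18 ± 0.08 at 8 weeks (edgeR adjusted p = 0.0786). Of the venous and activation genes 4 were higher at each age. Vcam1 rose by 1.05 ± 0.11 and 2.29 ± 0.19 (edgeR adjusted p = 1.13e-06), Icam1 by 1.02 ± 0.11 and 1.21 ± 0.15, and Selp, the platelet and endothelial selectin, by 1.40 ± 0.37 and 3.60 ± 0.38, while Ephb4 was lower at 5 weeks, with a log2 difference of -0.59 ± 0.07. All 3 endocardial genes were higher at 8 weeks. Npr3 was higher by 2.55 ± 0.36, Tmem108 by 2.09 ± 0.30, and Cytl1 changed direction from -1.02 ± 0.18 to 1.59 ± 0.27 (edgeR adjusted p = 0.000265).

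Of 5 lymphatic genes tested 4 were higher and 1 lower at 8 weeks. Lyve1, which macrophages of the heart also carry, changed direction from -0.70 ± 0.13 to 2.33 ± 0.33 (edgeR adjusted p = 6.75e-05), and Pdpn was higher by 1.74 ± 0.16 and 2.27 ± 0.18. Prox1, the defining factor of lymphatic endothelium, was lower, with log2 changes of -0.35 ± 0.08 at 5 weeks and -0.83 ± 0.10 at 8 weeks (edgeR adjusted p = 1.55e-05). Of 7 sprouting genes 3 were higher at 8 weeks, with Plaur, the urokinase receptor, higher by 1.47 ± 0.24 and 1.72 ± 0.24, Col4a2, a basement membrane collagen, by 0.53 ± 0.17, and Mcam lower at 5 weeks, with a log2 difference of -0.29 ± 0.08. Angiogenesis inhibitors were higher in 3 of 5 at 5 weeks and 4 of 5 at 8 weeks. Thbs1, thrombospondin, rose by 2.37 ± 0.14 and 2.78 ± 0.41 (edgeR adjusted p = 8.05e-05) and Serpinf1 by 1.31 ± 0.08 and 2.89 ± 0.22 (edgeR adjusted p = 8.20e-07). Vash1, an inhibitor made by endothelium itself, was lower, with log2 changes of -0.88 ± 0.15 and -1.45 ± 0.14 (edgeR adjusted p = 4.23e-06).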

How the data were processed

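Left ventricle of 39 hearts was sequenced. Per the labels' protocols, Trizol served for RNA isolation and a TruSeq stranded mRNA kit for the libraries. Tools named in the submitters' processing notes are STAR 2.7.3a and featureCounts of Subread 2.0.0, with build mm10. The authors deposited raw counts, 1 whole number per gene and library. GENCODE vM21 (GRCm38) named 36429 of 38293 gene IDs, and unnamed IDs held 0.133% of counts.

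After filterByExpr and TMM scaling, edgeR 4.0.16 (R 4.3.3) gave quasi-likelihood tests, with p-values adjusted over all genes by Benjamini-Hochberg. Each fit held the libraries of 1 age or of the surgery set, and ages were compared in a fit of all 39 libraries. Standard errors are the absolute log2 change divided by the square root of F. Scripts were tested on simulated counts. Alternatives were DESeq2 1.42.0, limma-voom (limma 3.58.1), other scalings, filters and sets of libraries, and a replicate block. Per-library values are given, by rule, for the 2 members of each role with the smallest p at 5 and at 8 weeks, members called in opposite directions in 2 comparisons, the 8 with the smallest p for the difference between 8 and 5 weeks, and the ligands. Of each partner list, the 2 genes with the smallest p at each age and the one called gene that moved most the other way are named. Members and lists were chosen with earlier results of these data known.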

Additional observations from a re-analysis of the deposited data

Results flagged for a closer look

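In 22 of 351 groups of 4 libraries, 1 library stood apart from the other 3 by Dixon's criterion. Chance flags about 1 in 20 groups. In homozygous hearts at 8 weeks these were Aplnr (highest, replicate 4, 21.5 CPM), Cdh5 (highest, replicate 1, 248 CPM), Icam2 (highest, replicate 4, 27.9 CPM) and Plvap (lowest, replicate 4, 65.6 CPM). In heterozygous hearts these were Kdr (highest, replicate 1, 348 CPM) and Flt1 (highest, replicate 1, 179 CPM). In homozygous hearts at 5 weeks it was Apln (highest, replicate 4, 14.1 CPM). In wild type hearts of that age it was Angpt1 (lowest, replicate 3, 17.4 CPM). At 3 weeks the homozygous group held Tie1 (highest, replicate 4, 249 CPM), Pecam1 (lowest, replicate 1, 179 CPM) and Entpd1 (lowest, replicate 3, 19.3 CPM). The wild type group at 3 weeks held Esam (highest, replicate 2, 135 CPM) and Icam2 (highest, replicate 2, 44.7 CPM). In the pooled sham group it was, from a heart aged 12 weeks, Tek (highest, replicate 2, 86.4 CPM). After ischemia-reperfusion these were Ptprb (highest, replicate 1, 179 CPM), Notch4 (lowest, replicate 2, 47.6 CPM), Podxl (highest, replicate 1, 342 CPM), Fabp4 (lowest, replicate 4, 377 CPM) and Aqp1 (highest, replicate 1, 541 CPM). After infarction these were Angpt2 (highest, replicate 1, 8.43 CPM), Gpihbp1 (lowest, replicate 1, 46.2 CPM) and Entpd1 (highest, replicate 2, 25.3 CPM).

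The genotype effect differed between 8 and 5 weeks, by the interaction test in edgeR, for 27 members. The log2 differences (8 weeks minus 5 weeks) were Kdr -1.25, Flt4 1.19, Tek 0.52, Ptprb 0.76, Vegfa -0.65, Vegfb -0.42, Angpt2 1.21, Apln -2.08, Aplnr -2.54, Ramp2 1.48, S1pr1 0.95, Dll4 -0.95, Notch4 0.57, Erg 0.40, Sox17 1.31, Pecam1 1.17, Pcdh12 -1.29, Emcn 1.34, Podxl -0.78, Eng 1.62, Plvap 2.14, Vwf 3.00, Fabp4 1.44, Gpihbp1 2.04, Nos3 0.64, Entpd1 2.0 and Rgcc 1.70. Every one of the 8 negative values belongs to a member lower at both ages.

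Between 5 and 3 weeks the effect differed for 26 members, all toward lower. The log2 differences (5 weeks minus 3 weeks) were Kdr -0.67, Flt1 -0.67, Tek -0.85, Tie1 -0.96, Ptprb -0.86, Vegfa -0.52, Angpt2 -0.88, Apln -1.33, Ramp2 -0.56, S1pr1 -0.65, Dll4 -0.77, Erg -0.63, Cdh5 -0.88, Pecam1 -0.67, Esam -0.46, Icam2 -0.73, Pcdh12 -0.93, Emcn -0.72, Podxl -0.60, Eng -0.53, Robo4 -0.87, Mmrn2 -0.62, Fabp4 -0.64, Gpihbp1 -0.66, Aqp1 -1.36 and Nos3 -0.85.

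Ischemia-reperfusion and infarction differed, by the direct test in edgeR, for 7 members. The log2 differences (ischemia-reperfusion minus infarction) were Kdr -0.43, Flt4 -0.46, S1pr1 0.49, Sox17 0.71, Cdh5 -0.28, Pcdh12 -0.67 and Entpd1 0.45. No cause of these differences was tested.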

How the results depend on the processing

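Members called higher and lower were counted again under each alternative. At 5 weeks library size scaling gave 2 higher and 32 lower, and leaving out 1 library gave 1 higher and 35 to 36 lower. At 8 weeks leaving out 1 library gave 12 to 13 higher and 16 to 20 lower. After ischemia-reperfusion the count lower, 5, became 0 with library size scaling (9 higher), 3 with no filter, 3 with the replicate block and 0 with age-matched shams, and 2 to 6 lower and 2 to 3 higher when 1 library was left out. After infarction the count lower, 1, became 0 with library size scaling, the replicate block and age-matched shams, and without 1 library the counts were 2 to 4 higher and 0 to 1 lower. Between the injuries library size scaling left 2 lower. For 5 against 3 weeks it left 16 of 26 lower, and leaving out 1 library gave 22 to 31. In wild type hearts at 8 against 3 weeks limma-voom called 1 higher and 7 lower, and without 1 library 0 to 1 were higher and 1 to 4 lower. For 8 against 5 weeks, leaving out 1 library gave 18 to 21 higher and 7 to 9 lower, and the calls of Erg and Vegfb were lost in several such fits.

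Of the member values under other alternatives, 3758 kept their status as called or not called, 62 lost a call and 80 gained one. None changed direction once called. The 3758 include values that were never called, such as all 351 of heterozygous against wild type hearts at 8 weeks. Leaving out 1 library kept the status of 3728 values, with 121 calls lost and 51 gained. At 8 weeks the calls of Egfl7 (edgeR adjusted p = 0.0548) and Esam (edgeR adjusted p = 0.0881) were lost with the replicate block. Vwf at 5 weeks (edgeR adjusted p = 0.0586) was called lower with limma-voom, with no filter and with the block. The cause of these shifts was not tested. Replicate numbers did not pair the samples (correlations of deviations from -0.099 to 0.221), and at 5 weeks 3 of 4 libraries correlated best with their own number. Depth limits Angpt2 and Apln most, with 32 and 13 counts in their lowest libraries.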

Other observations

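In sham hearts several members spread widely between 4 libraries. Cldn5 stood at 11.6, 75.4, 34.9 and 39.4 CPM, in the order 12 weeks replicate 1, 20 weeks replicates 1 and 2, 12 weeks replicate 2, and its standard error for ischemia-reperfusion against sham, 0.41, was the largest of the list. Angpt1 stood at 57.5, 35.1, 27.3 and 23.2 CPM in the same order and at 43.4, 36.6, 52.4 and 66.3 CPM after infarction, with a log2 difference of 0.47 ± 0.29 (edgeR adjusted p = 0.313). In wild type hearts at 5 weeks Angpt1 was not lower than at the other ages of the set (17.4 to 23.8 CPM, against 10.3 to 18.8 CPM at 3 weeks and 17.4 to 22.6 CPM at 8 weeks), and sham hearts stood higher, at 23.2 to 57.5 CPM. In wild type hearts Angpt1 at 8 weeks against 3 weeks had a log2 difference of 0.42 ± 0.31 (edgeR adjusted p = 0.458). Wild type hearts at 5 weeks were tested against neither of these ages, and no wild type group was tested against sham hearts. The share of counts from mitochondrially encoded genes was 14.57% to 15.92% in homozygous and 19.93% to 21.08% in wild type hearts at 5 weeks, and leaving these genes out changed no member's call at that age.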
